A study of Homo sapiens with 6 samples.

Results

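The S phase and DNA replication genes described here are 51 genes chosen by symbol, from the MCM helicase to nucleotide synthesis, cyclin E and the E2F factors. All 51 were found among the 14987 genes of the deposited expression table, and all 51 were among the 12263 genes tested, those that reached a value of 1 in 2 or more libraries. The 6 libraries were made from messenger RNA of HCT116 cells, a long-established line from a human colorectal carcinoma. YAP knockdown cells deprived of glucose for 6 h gave 1 library for each of the constructs shYAP1 and shYAP3, and wild-type NC cells under the same deprivation gave 1. Control medium gave 1 library each of shYAP1, shYAP3 and NC cells. The series title puts the question of what YAP does in gene expression that low glucose induces. YAP is a transcriptional coactivator of the TEAD factors. Each construct gave 1 library per medium and NC cells had no replicate, and the labels do not state separate cultures. The p-values therefore measure only the spread between these libraries, which may be technical. Where each genotype and medium had its own mean, that spread was the difference between the shYAP1 and shYAP3 libraries. No spread of NC cells was measured there. Where genotype and medium were separate terms, the spread also held any difference of the response between genotypes.

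The libraries held 16912634 to 22161075 listed reads. YAP1 itself lay between 18.2 and 38.2 in the 4 shYAP libraries and between 154 and 188 in the 2 NC libraries. Colorectal epithelial markers took 0.465% to 0.623% of the reads in deprived and 0.402% to 0.527% in control libraries. Among them CDX1 and CDH17 had no row in the table. After deprivation CDX2 fell by 0.81 on the log2 scale, while KRT8, KRT18 and EPCAM rose. Markers of fibroblasts, leukocytes and endothelium took at most 0.00345%, and PTPRC, CD3E, PECAM1, CDH5, COL1A2 and DCN had no row in the table, although HLA-DRA and CD68 rose after deprivation. The libraries differed by transcript length: in the shYAP3 deprived library the shortest 10% of genes lay 0.44 above and the longest 10% lay 0.29 below their own means on the log2 scale, against −0.19 to 0.14 and −0.08 to 0.12 in the others.

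A replication origin is licensed in G1 when the origin recognition complex, CDC6 and CDT1 load the ring of MCM proteins onto DNA. In S phase CDC45 and the GINS proteins join that ring to form the moving helicase, primase and the polymerases copy the strands, and the clamp loader places PCNA, the sliding clamp, behind them. Many of these genes are transcribed at the end of G1 by E2F factors once cyclin kinases have inactivated the retinoblastoma protein, and deoxynucleotide synthesis rises with them.

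The promoters of these genes were read for the E2F recognition letters because the genes share that regulator in the textbook account. RefSeq promoter windows (GRCh38.p14, 250 bases before to 50 after the annotated start) were found for 44 of the 51 genes, and those of MCM4, MCM5, GINS4, POLD3, CCNE2, RPA2 and RPA3 were not used here. At least 1 match on either strand to TTTCCCGC, TTTGGCGC, TTTCGCGC or TTTGCCGC stood in 21 of the 44 windows (47.7%), against 3.31% of 35116 promoter windows of all genes. Overlapping matches were each counted, and MCM6 holds 4, as TTTGGCGC and the reverse of TTTCGCGC overlap in each of its 2 capital runs. CCAAT, read on both strands, stood in 25 of the 44 windows (56.8%), against 34.6% of all. Each member entered with 1 window, while the 35116 are every listed window, whether or not its gene was tested here. 4 windows are printed from 5′ to 3′ on the strand of the gene, with the E2F letters in capitals: that of a licensing gene that rose after deprivation (CDC6, chr17:40287629-40287928, plus strand), those of an activator and a helicase subunit that fell (E2F2, chr1:23531184-23531483, minus strand, and GINS1, chr20:25407423-25407722, plus strand), and that of a helicase subunit that did not pass (MCM6, chr2:135876394-135876693, minus strand).
CDC6: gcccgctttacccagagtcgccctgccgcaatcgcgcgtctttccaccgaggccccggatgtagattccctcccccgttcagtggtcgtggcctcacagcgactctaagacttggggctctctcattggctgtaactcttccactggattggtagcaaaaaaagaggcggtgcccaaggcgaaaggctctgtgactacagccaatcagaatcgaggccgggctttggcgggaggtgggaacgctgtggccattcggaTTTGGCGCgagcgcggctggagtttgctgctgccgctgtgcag
E2F2: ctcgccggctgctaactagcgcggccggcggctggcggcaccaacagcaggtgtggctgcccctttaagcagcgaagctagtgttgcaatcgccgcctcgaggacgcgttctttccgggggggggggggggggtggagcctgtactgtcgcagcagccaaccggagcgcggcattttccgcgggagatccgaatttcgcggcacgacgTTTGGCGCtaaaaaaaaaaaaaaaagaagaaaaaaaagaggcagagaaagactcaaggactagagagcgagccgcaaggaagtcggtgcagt
GINS1: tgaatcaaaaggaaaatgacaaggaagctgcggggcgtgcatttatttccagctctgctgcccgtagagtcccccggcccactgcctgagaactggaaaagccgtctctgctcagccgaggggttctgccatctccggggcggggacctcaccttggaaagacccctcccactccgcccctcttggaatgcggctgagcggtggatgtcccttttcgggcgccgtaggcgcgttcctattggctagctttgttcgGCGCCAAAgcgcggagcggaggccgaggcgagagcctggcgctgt
MCM6: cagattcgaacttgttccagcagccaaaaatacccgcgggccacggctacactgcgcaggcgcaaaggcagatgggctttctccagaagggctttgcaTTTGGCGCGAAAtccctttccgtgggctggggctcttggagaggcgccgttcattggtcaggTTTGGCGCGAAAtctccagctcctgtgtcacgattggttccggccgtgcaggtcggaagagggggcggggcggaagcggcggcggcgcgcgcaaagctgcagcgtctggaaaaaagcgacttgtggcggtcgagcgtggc

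After glucose deprivation 10 of the replication genes rose and 4 fell, as part of a response that called 32.1% of all tested genes. CDC6, the loader of the MCM ring, rose 1.66-fold, RPA3 of the single-strand binding complex 1.71-fold, the cyclin CCNE2 1.61-fold and the ribonucleotide reductase subunit RRM1 1.54-fold, while the transcription factor E2F2 fell to 0.498, the GINS subunit GINS1 to 0.606, the chromatin assembly subunit CHAF1A to 0.659 and the flap nuclease FEN1 to 0.673 of the control level. The 3 deprived libraries were set against the 3 control libraries with genotype as a covariate, by limma on log2(value + 1), with p-values adjusted by Benjamini-Hochberg over all 12263 genes and called at 0.05. Of the 51 genes, 10 rose, against 16.5% of all tested genes, and 4 fell, against 15.6% of all tested genes. As shares of the members these are 19.6% and 7.84%. The median log2 fold change was 0.03 over the 51 genes and 0.05 over all tested genes. In bulk RNA a smaller share of cells in S phase and less RNA per cell cannot be told apart. Deprived and control libraries did not overlap for 22 of the 51: 12 lay above in all 3 deprived libraries, against 26.8% of all tested genes, and 10 lay below, against 23.8% of all tested genes.

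**Figure D1:**
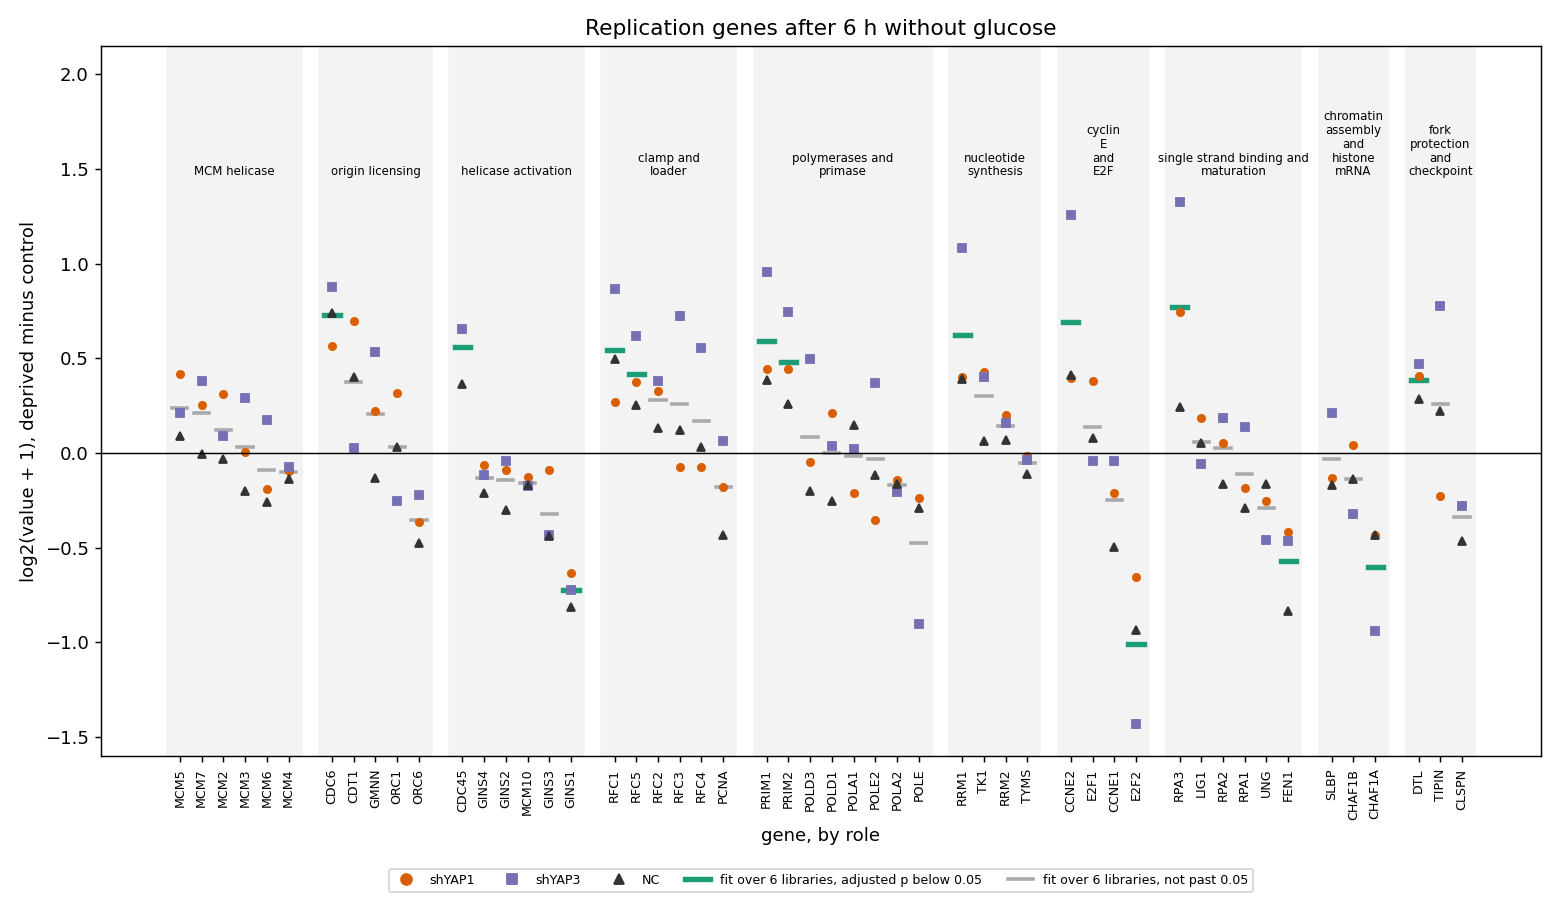
Response of the 51 genes to 6 h without glucose, as log2(value + 1) in deprived minus control cells, for the shYAP1, shYAP3 and NC lines (points) and for the fit over 6 libraries (bars, green where adjusted p is below 0.05). Within most roles some genes lie above 0 and others below, from 0.77 for RPA3 to −1.01 for E2F2.

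The 6 subunits of the MCM helicase had small fold changes, and 0 of 6 passed in limma. MCM5 had the smallest p of the 6, with 193, 173 and 183 in deprived shYAP1, shYAP3 and NC cells, against 144, 149 and 172 in control cells of the same lines. The deprived libraries lay just above the control libraries, a difference of 0.24 on the log2 scale (SE 0.13, limma adjusted p = 0.19). The 6 fold changes spanned −0.10 for MCM4 to 0.24 for MCM5 with a median of 0.08, and the median was −0.20 with quantile normalization and −0.23 when values were scaled to the listed total of each library. With trends on transcript length and GC content removed, MCM2 (0.29) and MCM5 (0.51) passed as higher. MCM4 passed as lower with quantile normalization (−0.38), and MCM4 (−0.41) and MCM6 (−0.40) passed as lower when scaled to the listed total.

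Among the licensing factors CDC6 (ENSG00000094804) rose. It stood at 213 in shYAP1, 204 in shYAP3 and 244 in NC cells after deprivation, against 144, 110 and 145 in control medium. All 3 deprived libraries lay above all 3 control libraries, at 220 ± 20.9 and 133 ± 19.8 (SD, n = 3 each), a rise of 0.73 on the log2 scale (SE 0.14, limma adjusted p = 0.0075). CDC6 passed in each of 10 other settings that kept all 6 libraries. CDT1, the partner of CDC6 in MCM loading, stood at 115, 69.6 and 122 in deprived shYAP1, shYAP3 and NC cells, against 70.5, 68.2 and 92.3 in control cells, and the log2 fold change of 0.38 did not pass (limma adjusted p = 0.14). It was 0.70 in shYAP1, 0.03 in shYAP3 and 0.40 in NC cells. ORC6, a subunit of the origin recognition complex, had 30.9 to 35.1 in deprived and 40.8 to 43.3 in control libraries without overlap, a log2 fold change of −0.35 that just missed the threshold (limma adjusted p = 0.067). ORC1 (0.03) and GMNN (0.21), the inhibitor of CDT1, did not pass.

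The factors that turn the loaded ring into a moving helicase went both ways. CDC45 (ENSG00000093009) had 45.5, 42.8 and 42.9 in deprived shYAP1, shYAP3 and NC cells, against 28.6, 26.8 and 33.1 in control cells. The deprived libraries were close together and all above the control libraries, a rise of 0.56 on the log2 scale (SE 0.14, limma adjusted p = 0.016). GINS1 (ENSG00000101003), which binds the same helicase, had 38.6, 32.3 and 34.5 in the deprived libraries in the same order, against 60.3, 53.9 and 61.5 in the control libraries. Each deprived library lay below each control library, and GINS1 fell by 0.72 (SE 0.14, limma adjusted p = 0.0068). The other GINS subunits had negative fold changes that did not pass, −0.15 for GINS2, −0.32 for GINS3 and −0.13 for GINS4. MCM10, which helps start the helicase, was at −0.16.

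Of the clamp and its loader, RFC1 and RFC5 rose and the clamp did not pass. RFC1 (ENSG00000035928), the large subunit of the loader, had 157, 197 and 158 in deprived shYAP1, shYAP3 and NC cells, against 130, 108 and 112 in control cells (log2 0.54, SE 0.15, limma adjusted p = 0.023). RFC5 (ENSG00000111445), a small subunit, had 105, 118 and 97.5 in the deprived and 80.7, 76.8 and 81.7 in the control libraries in the same order (0.42, SE 0.13, adjusted p = 0.041). For both genes every deprived library lay above every control library. With length and GC trends removed RFC5 was at 0.18 and did not pass (limma adjusted p = 0.15). RFC5 passed in only 4 of 10 other settings that kept all 6 libraries. RFC2 (0.28), RFC3 (0.26) and RFC4 (0.17) did not pass. PCNA stood at 244, 254 and 199 in deprived shYAP1, shYAP3 and NC cells, against 276, 242 and 268 in control cells. The groups overlapped, and PCNA was at −0.18 on the log2 scale (SE 0.14, limma adjusted p = 0.35), while single lines ranged from −0.43 in NC to 0.07 in shYAP3 cells.

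Both subunits of primase, which lays the RNA primers, rose. PRIM1 (ENSG00000198056), the catalytic subunit, had 57.7, 67.1 and 49.96 in deprived shYAP1, shYAP3 and NC cells, against 42.2, 34.1 and 38.1 in control cells (log2 0.59, SE 0.15, limma adjusted p = 0.019). PRIM2 (ENSG00000146143), its partner, had 54.9, 59.8 and 44.6, against 40.1, 35.4 and 37.1 (0.48, SE 0.14, adjusted p = 0.030). No deprived library overlapped a control library for either gene. With trends on transcript length and GC content removed the fold changes were 0.13 for PRIM1 and 0.15 for PRIM2 and neither passed. Of the polymerase subunits 0 of 6 passed, with fold changes from −0.48 for POLE to 0.08 for POLD3. POLE, the catalytic subunit of the leading-strand polymerase, had 111, 69.8 and 131 in deprived shYAP1, shYAP3 and NC cells, against 131, 131 and 160 in control cells (limma adjusted p = 0.069). Its fold change was −0.90 in shYAP3 cells and −0.24 and −0.29 in shYAP1 and NC cells. POLE passed as lower with the line as a block (adjusted p = 0.043), with quantile normalization (−0.62), scaled to the listed total (−0.78), in DESeq2 (−0.49) and without either deprived shYAP library. With the length and GC trends removed the fold change was −0.05 and did not pass.

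Among the enzymes of deoxynucleotide supply RRM2, TK1 and RRM1 were higher in every line, and of these RRM1 (ENSG00000167325) passed. This large subunit of ribonucleotide reductase had 309, 466 and 289 in deprived shYAP1, shYAP3 and NC cells, against 234, 220 and 221 in control cells. The shYAP3 deprived library stood far above the rest, and the deprived mean was 355 ± 96.7 against 225 ± 7.73 in control medium (SD, n = 3 each), a rise of 0.62 on the log2 scale (SE 0.18, limma adjusted p = 0.028). RRM2, the small subunit that is made in S phase, had 414, 356 and 421 in the deprived and 360, 319 and 401 in the control libraries in the same order, which overlapped (0.14, SE 0.14, adjusted p = 0.45). TK1, thymidine kinase, was higher in each deprived library, at 308 to 344 against 254 to 294, but did not pass (0.30, adjusted p = 0.12). TYMS, thymidylate synthase, was at −0.05.

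**Figure D2:**
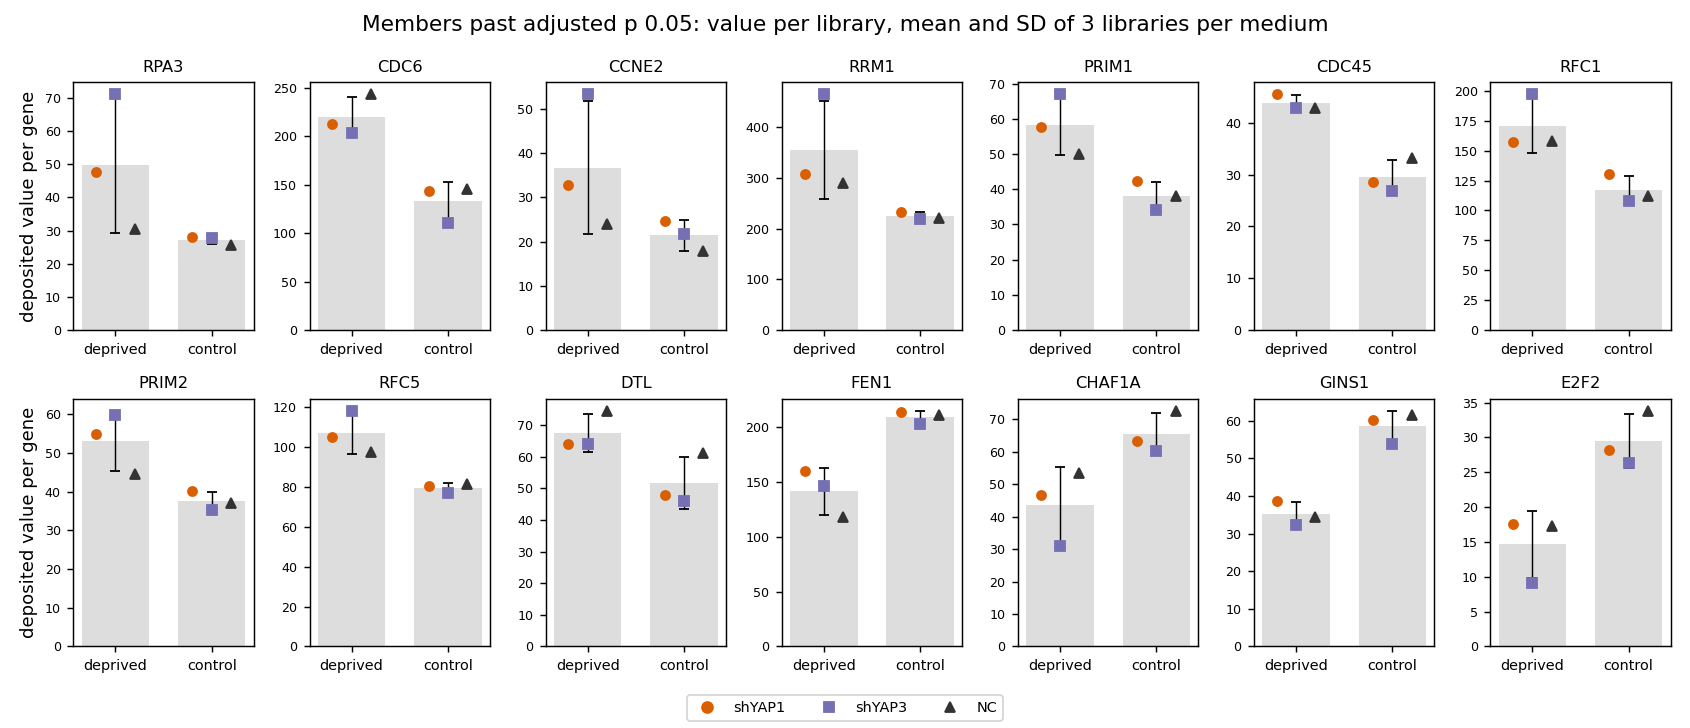
Deposited value per library of the 14 genes that passed in the response, for deprived (left) and control (right) cells, with the mean (bar) and SD of 3 libraries per medium (error bar) and the shYAP1, shYAP3 and NC libraries as points. CCNE2 is the gene of the 14 whose media overlap, at 24.1 in deprived NC and 24.7 in control shYAP1 cells.

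Among the cyclin E and E2F genes CCNE2 rose and E2F2 fell. CCNE2 (ENSG00000175305) had 32.8, 53.4 and 24.1 in deprived shYAP1, shYAP3 and NC cells, against 24.7, 21.7 and 17.8 in control cells (log2 0.69, SE 0.20, limma adjusted p = 0.028). Each line rose, but the deprived NC library lay just under the control shYAP1 library. With length and GC trends removed CCNE2 was at 0.29 and did not pass (limma adjusted p = 0.077). CCNE1, the other E cyclin, had 19.6 to 27.9 in deprived and 28.1 to 30.6 in control libraries (−0.25, adjusted p = 0.20). E2F2 (ENSG00000007968), an activator of S phase genes, had 17.5, 9.15 and 17.2 in deprived shYAP1, shYAP3 and NC cells, against 28.2, 26.4 and 33.8 in control cells. All deprived libraries lay below all control libraries, and it fell by 1.01 (SE 0.21, limma adjusted p = 0.0097). The lowest of these rests on 132 reads, the fewest of any member in any library, with a counting error of 8.7%. E2F1, a second activator, was at 0.14 (adjusted p = 0.48).

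In strand binding and lagging-strand work RPA3 rose and FEN1 fell. RPA3 (ENSG00000106399), the small subunit of the single-strand binding complex, had 47.7, 71.2 and 30.4 in deprived shYAP1, shYAP3 and NC cells, against 28.1, 27.8 and 25.6 in control cells (log2 0.77, SE 0.21, limma adjusted p = 0.023). The 3 deprived libraries lay above the control libraries but spread widely, at 49.8 ± 20.5 against 27.2 ± 1.36 (SD, n = 3 each). The other subunits RPA1 (−0.11) and RPA2 (0.03) did not pass. FEN1 (ENSG00000168496), which removes the flap of an Okazaki fragment, had 160, 146 and 118 in deprived shYAP1, shYAP3 and NC cells, against 214, 203 and 211 in control cells (−0.57, SE 0.14, adjusted p = 0.016). Every deprived library lay below every control library. LIG1, the ligase that follows it, was at 0.06, and UNG, a uracil glycosylase, at −0.29 (adjusted p = 0.12).

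CHAF1A (ENSG00000167670), the large subunit of the assembly factor that places histones behind the fork, had 46.6, 30.8 and 53.5 in deprived shYAP1, shYAP3 and NC cells, against 63.3, 60.1 and 72.6 in control cells. It fell by 0.60 without overlap between the media (SE 0.17, limma adjusted p = 0.027), while CHAF1B (−0.14) and SLBP (−0.03), which binds histone mRNA, did not pass. DTL (ENSG00000143476), the adaptor of the ubiquitin ligase that degrades CDT1, had 64.1, 64.0 and 74.5 in deprived shYAP1, shYAP3 and NC cells, against 48.0, 46.0 and 61.0 in control cells (log2 0.39, SE 0.13, limma adjusted p = 0.043). Its media did not overlap, but it passed in only 4 of 10 other settings that kept all 6 libraries. With the line as a block it did not pass (limma adjusted p = 0.051). CLSPN, the mediator of the replication checkpoint, had 35.8 to 40.7 in deprived and 43.7 to 55.6 in control libraries (−0.34, adjusted p = 0.083), and TIPIN of the fork protection complex was at 0.26 (adjusted p = 0.37).

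The direction of the whole set depended on the scale. By deposited values the 51 genes summed to 6029, 6175 and 5843 in deprived shYAP1, shYAP3 and NC cells, against 5612, 5242 and 6020 in control cells, which overlap. As a share of listed reads they took 0.566%, 0.527% and 0.574% in the same deprived libraries, against 0.624%, 0.623% and 0.680% in the control libraries, so that every deprived library was lower. Scaling to the listed total moved the median of all tested genes to −0.24 and that of the 51 genes to −0.28, and called 1 member higher, CDC6, and 18 lower, against 749 higher and 3802 lower over all genes. Among the 18 were all 4 GINS subunits, from −1.03 for GINS1 to −0.43 for GINS4. With length and GC trends removed 10 members passed as higher and 12 as lower, against 2115 higher and 2329 lower of 12107 tested genes. RFC5, PRIM1, PRIM2 and CCNE2 no longer passed, while CDT1 (0.51) and LIG1 (0.28) passed as higher and TYMS (−0.31), GINS3 (−0.50), POLE2 (−0.39) and CCNE1 (−0.40) as lower. ORC6, PCNA, UNG and CLSPN, which did not pass on the deposited scale, passed as lower in each of these settings and with quantile normalization. PCNA was at −0.56 with the trends removed, −0.49 scaled to the listed total and −0.43 with quantile normalization, and ORC6 at −0.62, −0.65 and −0.40 in the same order. The 14 genes that passed on the deposited scale kept the sign of their fold change in each of the 16 alternative settings.

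**Figure D3:**
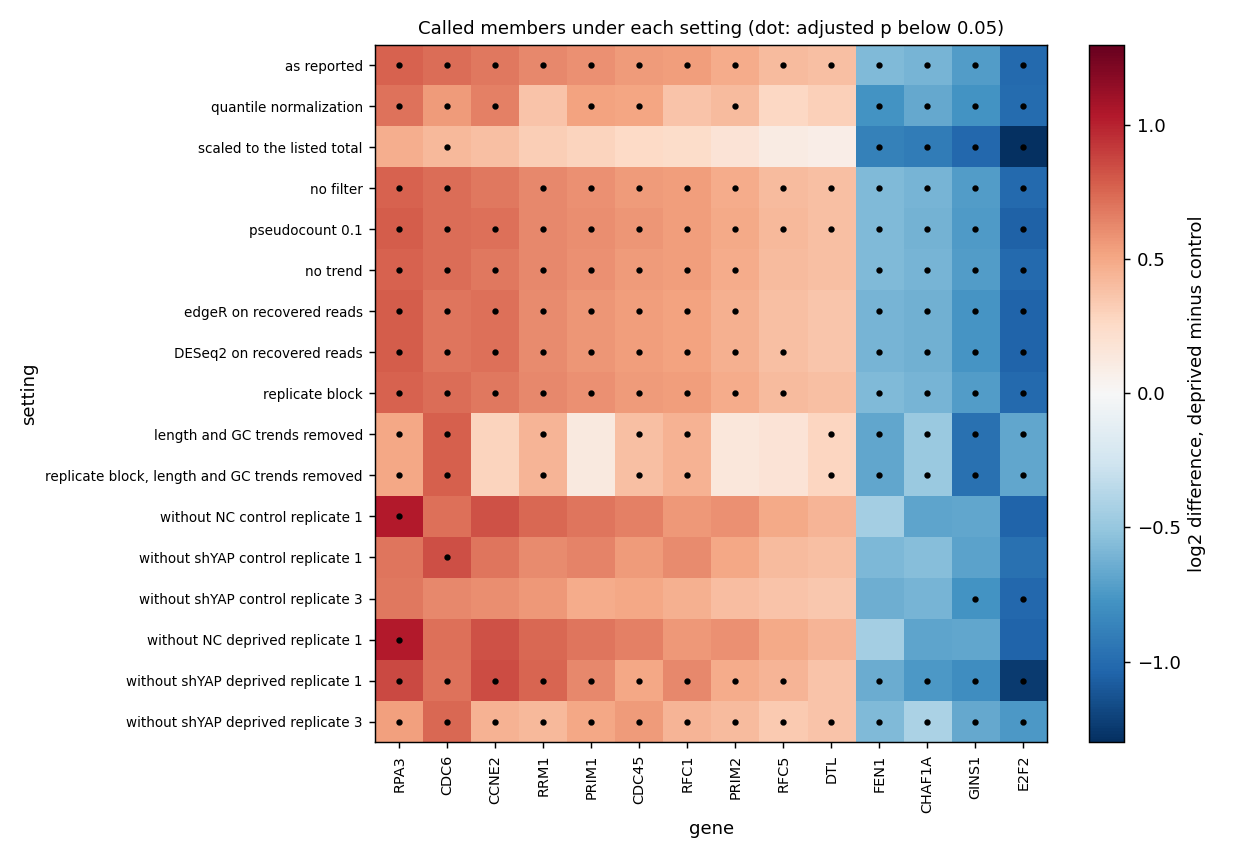
Log2 difference between deprived and control cells (colour) of the 14 genes that passed, in the reported fit and in each alternative setting (rows), with a dot where adjusted p is below 0.05. CDC6, GINS1, E2F2, FEN1 and CHAF1A carry a dot in all 10 alternatives that keep the 6 libraries, and 0 of the 14 genes carry one in all 6 fits that leave a library out.

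Most of the 14 calls were lost without any 1 of 4 libraries. Without the NC control or the NC deprived library the fit is the response of shYAP cells alone and RPA3 was the 1 member called. CDC6 was the 1 member called without the shYAP1 control library, and E2F2 and GINS1 were called without the shYAP3 control library. Over all tested genes these fits called 1412, 1416, 1150 and 1086 genes, against 3936 with all 6. Without the shYAP1 deprived library 10 members passed as higher and 6 as lower, and without the shYAP3 deprived library 12 and 8. Those fits called 4999 and 5306 of all tested genes.

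Per kilobase of the longest annotated transcript (GENCODE v29), the mean level in control medium was highest for PCNA at 193, MCM7 at 170, TK1 at 159 and TYMS at 109. It was lowest for E2F2 at 5.68, CCNE2 at 6.43 and POLD3 at 6.70. The MCM subunits ranged from 33.7 for MCM5 to 170 for MCM7 and the GINS subunits from 7.16 for GINS3 and GINS4 to 21.9 for GINS2. The longest transcript need not be the one expressed, and exons of 16 members overlap those of another coding gene, CCNE2, CHAF1A, FEN1, PRIM1, RFC5 and RPA3 among the genes that passed. FEN1 and RFC5 also have a pseudogene named after them, so that reads of these genes may be shared.

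YAP knockdown left the replication genes without a call. Over both media, 0 of 51 passed when the 4 shYAP libraries were set against the 2 NC libraries by limma with medium as a covariate, against 0.00815% of all tested genes, which is 1 gene. At an unadjusted p under 0.05 there were 4 members, against 898 of 12263 tested genes. On recovered reads edgeR and DESeq2 also called 0 members, against 1 and 7 of all tested genes. Fold changes of shYAP over NC cells spanned −0.45 for E2F1 to 0.57 for CCNE2 on the log2 scale, with a median of −0.03 over the members and −0.01 over all tested genes. The 95% interval of a single member reached a median of 0.34 to either side.

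E2F1 was lower in each shYAP library than in either NC library. It had 25.7 and 21.0 in deprived shYAP1 and shYAP3 cells and 19.5 and 21.7 in the same lines in control medium, against 31.0 and 29.3 in deprived and control NC cells (log2 −0.45, 95% interval −0.79 to −0.11, limma adjusted p = 0.58). TYMS was likewise lower, at 155 and 171 in deprived and 156 and 175 in control shYAP1 and shYAP3 cells, against 197 and 213 in deprived and control NC cells (−0.32, adjusted p = 0.58). POLA1, LIG1 and UNG shared this order without overlap, so that 5 members lay below, against 6.04% of all tested genes. GMNN lay above in all 4 shYAP libraries, as 1 member of 51, against 4.83% of all tested genes. It had 55.6 and 71.0 in deprived and 47.5 and 48.8 in control shYAP1 and shYAP3 cells, against 41.3 and 45.4 in deprived and control NC cells (0.34, adjusted p = 0.58). E2F1, TYMS and GMNN were chosen for description after their values were seen.

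In control medium 41 of 51 members had a negative fold change of shYAP over NC cells, with a median of −0.13, while 45.0% of all tested genes were positive, with a median of −0.02. In both shYAP libraries 35 members lay below NC, all 6 MCM subunits among them, and 5 lay above. The share of all tested genes with either order was not counted, and the 1 NC control library enters the comparison of every gene. The fold changes of the MCM subunits ran from −0.23 to −0.12. Of the 51, 0 passed in limma at adjusted p under 0.05 (0% of all tested genes). At an unadjusted p under 0.05 there were 0, against 164 of all tested genes. In edgeR and DESeq2 0 passed, against 0 and 2 of all tested genes. Without the shYAP1 or without the shYAP3 deprived library CDT1 and E2F1 passed as lower, in fits that called 495 and 489 of all 12263 tested genes. After deprivation the fold changes had a median of 0.08, and 0 members passed in limma, against 0.00815% of all tested genes. In edgeR and DESeq2 0 members passed, against 1 and 5 of all tested genes. In limma 3 members had an unadjusted p under 0.05, against 786 of all tested genes. These 3 were RPA3 (log2 0.92, SE 0.28), CCNE2 (0.78, SE 0.31) and GMNN (0.59, SE 0.23), each at limma adjusted p = 0.65. For RPA3 the shYAP1, shYAP3 and NC libraries held 47.7, 71.2 and 30.4. Both comparisons rest on the 1 NC library of their medium, and without the shYAP1 deprived library 22 members passed in the second, with 5736 of all tested genes. Without the shYAP3 deprived library RPA3 passed there as higher and TIPIN as lower, with 615 of all tested genes.

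**Figure D4:**
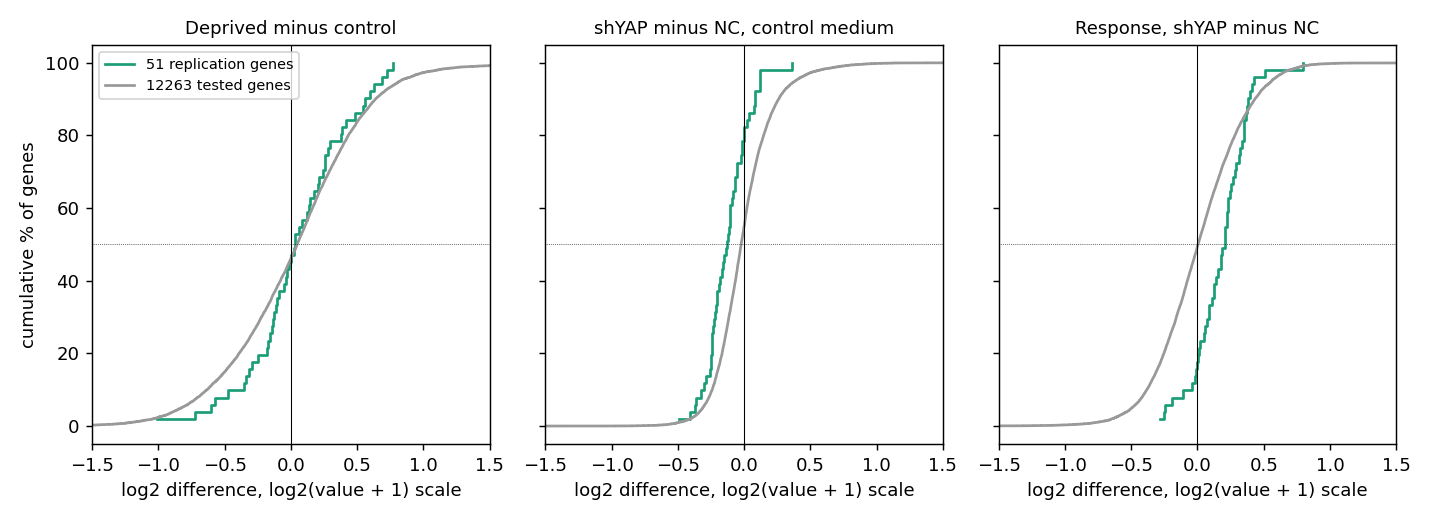
Cumulative share of genes (%) by log2 difference, for the 51 replication genes (green) and all 12263 tested genes (grey), in deprived minus control cells, in shYAP minus NC cells in control medium, and in the response of shYAP minus that of NC cells. The green curve lies near the grey one in the first panel, left of it in the second (medians −0.13 and −0.02) and right of it in the third (medians 0.20 and 0.00452).

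The part of the response that differed between shYAP and NC cells was asked with an interaction contrast in a model of 1 mean per genotype and medium. In limma 0 of 51 members passed (0% of all tested genes), and 0 had an unadjusted p under 0.05, against 111 of all tested genes. Both edgeR and DESeq2 called 0 members, against 0 and 1 of all tested genes. The difference was positive for 42 of the 51, with a median of 0.20 on the log2 scale, while 50.6% of all tested genes were positive, with a median of 0.00452. The same NC control library enters this contrast and the knockdown in control medium with opposite sign. The median over the members was 0.05 when scaled to the listed total, where that of all tested genes was −0.14, and 0.09 with length and GC trends removed. Per line, the median response of the 51 genes was −0.01 in shYAP1, 0.14 in shYAP3 and −0.12 in NC cells, against 0.03, 0.04 and 0.02 over all tested genes. In both constructs 32 members had a response above that of NC cells, and how many of all tested genes did so was not counted. The 95% interval of the difference reached a median of 0.73 to either side. RPA3 had the highest, at 0.79 (95% interval −0.13 to 1.72), with responses of 0.74 in shYAP1, 1.33 in shYAP3 and 0.24 in NC cells, while CDC6 was at −0.02, with responses of 0.56, 0.88 and 0.74 in the same order. Without the shYAP1 deprived library 7 members passed this contrast, with 2735 of all tested genes, and the lone shYAP3 deprived library was then assumed to vary like the control libraries.

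In shYAP cells alone the response called 1 member, RPA3 (log2 1.04, limma adjusted p = 0.038), against 5.62% of all tested genes that rose, 5.9% that fell and 11.5% in either direction. In that fit of all 6 libraries 16 members had an unadjusted p under 0.05 in limma, against 4444 of 12263 tested genes. Fits without 1 shYAP library left 1 library in a group, and the calls changed with the library left out. The member medians of these fits ran from 0.07 to 0.12 on the log2 scale, against 0.03 to 0.05 over all tested genes. With the construct as a block, which pairs the libraries of 1 line, 9 members passed, CDC6, CDC45, PRIM1, RRM1, CCNE2 and RPA3 as higher and E2F2, GINS1 and CHAF1A as lower, against 3357 of all 12263 tested genes. In NC cells alone there was 1 library per medium and no test. There the largest differences were those of CDC6 at 0.74 and E2F2 at −0.93. In NC cells 22 members lay above and 29 below 0, while 52.2% of all tested genes lay above 0.

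Genes of the neighbouring machinery also went both ways, and their lists, like the members, were drawn up with earlier results of these data known. Of 29 tested replication genes outside the 51, 4 rose and 1 fell, against 16.5% and 15.6% of all tested genes, with a median of 0.19. ORC3, of the origin recognition complex, had 70.7, 115 and 53.6 in deprived shYAP1, shYAP3 and NC cells, against 42.3, 42.8 and 30.1 in control cells (log2 0.98, SE 0.18, limma adjusted p = 0.0066), and POLD4, a polymerase subunit, rose by 0.90. TICRR, which brings CDC45 to the loaded ring, had 44.9, 25.9 and 51.5, against 72.3, 72.8 and 83.0 (−0.94, SE 0.20, adjusted p = 0.010). Of 27 genes of nucleotide supply 3 rose and 4 fell, against 16.5% and 15.6% of all tested genes. The largest rises were those of NME2 (0.67) and IMPDH2 (0.65). The largest falls were those of IMPDH1 (−0.94) and CAD (−0.79), the first enzyme of pyrimidine synthesis.

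Of 30 regulators of the passage from G1 to S, 6 rose and 3 fell, against 16.5% and 15.6% of all tested genes, with a median of 0.02. CDKN1A, the kinase inhibitor p21, had 288, 206 and 178 in deprived shYAP1, shYAP3 and NC cells, against 121, 80.9 and 93.0 in control cells (log2 1.17, SE 0.20, limma adjusted p = 0.0041), and MYC rose by 0.85. SKP2, the ubiquitin ligase subunit that degrades p27 and CDT1, had 20.7, 22.4 and 27.7 in the same deprived libraries, against 45.4, 50.8 and 49.4 in the control libraries (−1.02, SE 0.14, adjusted p = 0.0019), and CDK6 fell by 0.65. For CDKN1A and SKP2 the media did not overlap.

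The E2F letters stood in 2 of the 8 promoter windows of genes that rose, in 2 of the 4 of genes that fell and in 17 of the 32 of genes that did not pass. Both CDC6, which rose, and E2F2, which fell, hold TTTGGCGC, downstream of the annotated start in CDC6 and 42 bases upstream of it in E2F2. A match describes letters in a window and shows no binding.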

How the data were processed

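Expression was measured by sequencing of oligo-dT selected, randomly fragmented RNA, per the labels' protocols. The submitters' processing notes list the build hg19 with Bowtie2 and BWA, in no stated role. Counter, annotation, strand setting and scaling are not given in the sources used here. The deposited signal per gene is a normalized value, and dividing each library by its smallest step gave whole reads for 100% of values, within 0.01 of a read. Every listed gene was above 0 in the NC control library, which was so in no other. 1 read was worth 0.0406 to 0.0693, and a count of 0 allows 3 reads, worth 0.122 to 0.208. These floors and the counting error of a read number cover counting error only, while the 95% intervals of fold changes come from the spread between libraries.

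On log2(value + 1), limma 3.58.1 (under R 4.3.3) was run with its trend option, for genes that reached 1 in 2 or more libraries. This scale understates fold changes of low genes. The response came from a model of genotype and medium, the knockdown over both media from the same model, and the other contrasts from a model of 1 mean per genotype and medium. P-values were adjusted by Benjamini-Hochberg. The code was tested on simulated data. Alternatives were quantile normalization, scaling to listed totals, no filter, a pseudocount of 0.1, no trend, edgeR 4.0.16 and DESeq2 1.42.0 on the recovered reads, removal of length and GC trends (longest GENCODE v29 transcript, found for 12107 of 12263 genes), the line as a replicate block, and leaving out each library. The constructs shYAP1 and shYAP3 pair their libraries, since each is 1 line. The deviations of the shYAP1 libraries of both media from their group means were only weakly correlated over genes, at 0.102. edgeR called 3848 genes and DESeq2 4140 in the response.

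All 51 members are accounted for. Values per library are given for members that passed in any comparison and, in a role with none, for that of smallest p, and for a few others chosen after seeing their values. From other lists at most 2 genes per direction are named. The members and lists were chosen with earlier results of these data known.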

Additional observations from a re-analysis of the deposited data

How the results depend on the processing

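In the response, 10 members were called higher and 4 lower, of 3936 genes called in all. With quantile normalization these were 6 and 10, against 1820 higher and 2161 lower over all genes. Scaled to the listed total they were 1 and 18 (median of the members −0.28, against 0.03), against 749 and 3802 over all genes. With length and GC trends removed 12 members were lower, against 2329 of all genes. Together with the replicate block 12 were lower as well, against 2662 of all genes. Leaving out 1 library at a time gave 0 to 12 higher and 0 to 8 lower members, 1086 to 5306 genes in all and a member median of −0.01 to 0.12. The replicate block gave 9 higher and 5 lower members of 4453 genes in all, with POLE in and DTL out, and changed no other call of a member in this comparison. The response in shYAP cells called 1 member, but 9 with the replicate block, 9 with DESeq2, 3 with quantile normalization, 9 scaled to the listed total, 14 with length and GC trends removed and 0 without a filter, and 0 to 30 when a library was left out. Leaving out 1 library gave 0 to 7 members in the interaction, 0 to 2 for the knockdown in control medium and 0 to 22 after deprivation. Where this left a single library in a group, it was assumed to vary like the others. Over all tested genes the response in shYAP cells called 1412 in the reported fit, 3357 with the replicate block and 2525 with DESeq2. That response called 1480 with quantile normalization, 3147 scaled to the listed total, 2876 with length and GC trends removed and 0 without a filter. The calls over all genes also changed with the library left out, so those member counts do not single out replication genes. Without an NC library the interaction could not be fitted, nor the knockdown in that library's medium. Of single members, 0 results with a call on either side changed sign, and 58 uncalled values did. The cause of these changes was not tested. Members held 132 to 12820 reads per library, and with 1 or 2 libraries per genotype and medium the number of libraries limits the precision.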

Other observations

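Genes of the replication checkpoint and of repair were divided as well. Of 24 tested, 6 rose and 2 fell in the response by limma, against 16.5% and 15.6% of all tested genes, with a median log2 fold change of 0.19. USP1, the ubiquitin protease that acts on PCNA, had 112, 151 and 113 in deprived shYAP1, shYAP3 and NC cells, against 66.9, 68.5 and 59.1 in control cells (log2 0.93, SE 0.15, limma adjusted p = 0.0033). The largest rise of the list was that of RAD51AP1 (0.98, SE 0.20, limma adjusted p = 0.0084). MSH6 of mismatch repair fell by 0.62 and ASF1B, a histone chaperone, fell by 0.54.

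Of 30 genes of G2 and mitosis, 1 rose and 5 fell, against 16.5% and 15.6% of all tested genes, with a median of −0.07. PLK1, a mitotic kinase, had 84.6, 75.8 and 100 in deprived shYAP1, shYAP3 and NC cells, against 143, 147 and 164 in control cells (log2 −0.80, SE 0.13, limma adjusted p = 0.0034), and KIF20A, a mitotic kinesin, fell by 0.71. TTK, a spindle checkpoint kinase, was the gene of the list that rose (0.74, SE 0.22, adjusted p = 0.030), at 93.2, 177 and 69.3 in deprived shYAP1, shYAP3 and NC cells, against 81.8, 72.4 and 40.7 in control cells.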
